A study of Homo sapiens with 6 samples.

Results

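The histone genes of A549, a human cell line from an adenocarcinoma of the lung, were compared between sgH2AC19 cells and sgControl cells. The set held 81 of the 62700 genes in the deposited table: the genes whose symbols put them among the numbered H1, H2A, H2B, H3 and H4 genes, and 8 variant genes chosen by name. Among the numbered genes 10 belong to H1, 17 to H2A, 18 to H2B, 13 to H3 and 15 to H4, and the variants were H2AX, H2AZ1, H2AZ2, H2AJ, MACROH2A1, MACROH2A2, H3-3A and H3-3B. The labels describe the sgH2AC19 cells as knockout derivatives made with a guide against H2AC19, and the sgControl cells, which carry a control guide, as wild type. Each group had 3 libraries. All were grown in the same serum-containing medium, and the libraries came from total RNA prepared with a SMARTer mRNA-seq kit. Whether the derivatives are 1 clone or a pool is not given in the sources used here, and the labels do not say that the 3 libraries of a group came from separate cultures, so the p-values reflect how far these libraries scatter, and that scatter may be technical.

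Each nucleosome wraps DNA around a core of paired H2A, H2B, H3 and H4 proteins, and linker histone H1 binds where the DNA enters and leaves. Most genes for these proteins lie in clusters, are transcribed in S phase, and give mRNAs that end just after a short stem-loop bound by SLBP in place of a poly(A) tail. Variant genes and a few of the clustered genes also give, or give only, polyadenylated mRNA, which methods that select or prime on poly(A) recover far better than the stem-loop form.

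Recovered from the step size of the FPKM values, the read totals were 45738439, 35681162 and 37985593 in the sgH2AC19 libraries and 36255807, 39520141 and 40570759 in the sgControl libraries. Of all genes, 25762 were at 0 in the 6 libraries, and 12871 had at least 1 FPKM (fragments per kilobase of gene length and scaled to the fragment total of each library) in at least 3 libraries and were tested. In limma's test at an adjusted p under 0.05, 1545 of these were higher and 1422 lower in sgH2AC19, which is 12% and 11.0% of the genes tested. The epithelial markers KRT8 and KRT18 were at 303.8 and 411.7 FPKM in sgH2AC19 and 233.3 and 302.4 FPKM in sgControl (means, n = 3 each). Of the 6 epithelial markers 4 were called higher and 2 lower, the lower ones being KRT19 at 43.5 FPKM in sgH2AC19 and 59.9 FPKM in sgControl (log2 fold change -0.45, adjusted p 0.0023) and CLDN4 at 0.823 FPKM in sgH2AC19 and 1.41 FPKM in sgControl (-0.40, adjusted p 0.0185). Markers of other cells were low. Summed over the 5 endothelial markers they reached 0.213 to 0.269 FPKM in sgH2AC19 and 0.129 to 0.204 FPKM in sgControl. The 6 fibroblast markers summed to 5.28 to 6.07 FPKM in sgH2AC19 and 3.38 to 3.86 FPKM in sgControl, and the 6 leukocyte markers to 2.91 to 4.22 FPKM in sgH2AC19 and 2.62 to 3.04 FPKM in sgControl, with CD3E at 0. Of the fibroblast markers 2 were tested, and limma called both higher. LUM averaged 3.97 FPKM in sgH2AC19 and 2.81 FPKM in sgControl (0.38, adjusted p 0.0208), above CLDN4. COL1A1 averaged 1.39 FPKM in sgH2AC19 and 0.641 FPKM in sgControl (0.54, adjusted p 0.00484). CD14, the one leukocyte marker tested, averaged 2.60 FPKM in sgH2AC19 and 1.94 FPKM in sgControl, like LUM above CLDN4. It was not called (0.29, limma adjusted p 0.129). The part of the fibroblast and leukocyte markers in the results below was not tested.

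The stem-loop is shown for 8 members on which the results turn: the targeted gene and its twin, a gene of each core class that was higher in sgH2AC19, a member in which 1 library stood apart, and a variant that carries the element. The 26 bases are printed 5′ to 3′ on the sense strand in the DNA alphabet, from GENCODE 29 transcripts (GRCh38), with the 16 bases of the stem-loop in capitals.
H2AC19: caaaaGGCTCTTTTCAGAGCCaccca
H2AC18: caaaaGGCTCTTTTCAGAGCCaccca
H2AC6: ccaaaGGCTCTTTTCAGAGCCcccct
H2BC5: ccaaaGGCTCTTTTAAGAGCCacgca
H2BC21: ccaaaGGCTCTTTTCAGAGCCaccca
H3C6: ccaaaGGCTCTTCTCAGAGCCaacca
H4C8: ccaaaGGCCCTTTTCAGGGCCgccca
H2AX: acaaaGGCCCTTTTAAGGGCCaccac
These lie at chr1:149851569-149851594 on the plus strand for H2AC19, chr1:149842218-149842243 on the minus strand for H2AC18, chr6:26124664-26124689 on the plus strand for H2AC6 and chr6:26158582-26158607 on the plus strand for H2BC5. The others are at chr1:149886183-149886208 on the minus strand for H2BC21, chr6:26225591-26225616 on the plus strand for H3C6, chr6:26285126-26285151 on the minus strand for H4C8 and chr11:119094893-119094918 on the minus strand for H2AX. A match to the histone 3′ stem-loop consensus was found in 43 of 20371 genes with coding transcripts, or 0.211%. It is a match of letters in an annotated transcript and says nothing of which 3′ end the cells used.

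The targeted gene could not be followed in these libraries. H2AC19 (ENSG00000288859; HIST2H2AA4 in GENCODE 29, a single exon at chr1:149851061-149851624, plus strand, GRCh38) was listed at 0 FPKM in all 6 libraries. H2AC18, its inverted twin at chr1:149842188-149842736 on the minus strand, was also listed at 0 in all 6. Their coding sequences of 393 bases are identical, and of the 50-base words in the annotated transcripts 2.91% in H2AC19 and 0% in H2AC18 occur in no other gene. The value of H2AC19 therefore checks neither the labels nor the knockout.

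Detection was uneven across the family. Of the 81 genes, 12 were listed at 0 in all 6 libraries, 42 were above 0 in all 6, and 27 were above 0 in 1 to 5. The 12 were H1-1, H1-8, H2AC1, H2AC4, H2AC18, H2AC19, H2BC1, H3C4, H3C14, H3C15, H4C7 and H4C14. Among them are H1-8 and H2BC1, known for expression in oocytes and in testis. Of the 69 genes above 0, 24 passed the filter and were tested: 4 of H1, 4 of H2A, 4 of H2B, 3 of H3, 1 of H4 and all 8 variants. The other 45 stayed below it.

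Near-identical copies limit what a value of 0 or a low value can mean. Coding sequences were identical in H3C14 and H3C15 (411 bases), in H4C14 and H4C15 (312 bases) and in H4C11 and H4C12 (312 bases), and H3C13 differed from H3C14 at 12 of 411 bases. Of the 68 replication-dependent genes (H1-1 to H1-5 and all numbered core genes), 10 had under 10% of their 50-base words to themselves. In that set 6 were at 0 in all libraries and 1 was tested. Another 45 genes had at least 90% of words to themselves, of which 5 were at 0 and 11 were tested, and among the 13 in between none was at 0 and 2 were tested. How the authors counted reads that fit several genes, and whether counting used strand, is not given in the sources used here, so the values of the genes with shared words are uncertain. Among the tested genes H2AC15 and H2BC12 have the smallest shares. H2AC15, at 0% unique words, lies whole inside an annotated form of H2BC15 on the opposite strand. H2BC12, at 25.9%, shares most of its words with a gene outside the set, H2BC12L (H2BFS in GENCODE 29), which was at 0.0356 FPKM in sgH2AC19 and 0.160 FPKM in sgControl (means).

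**Figure D1:**
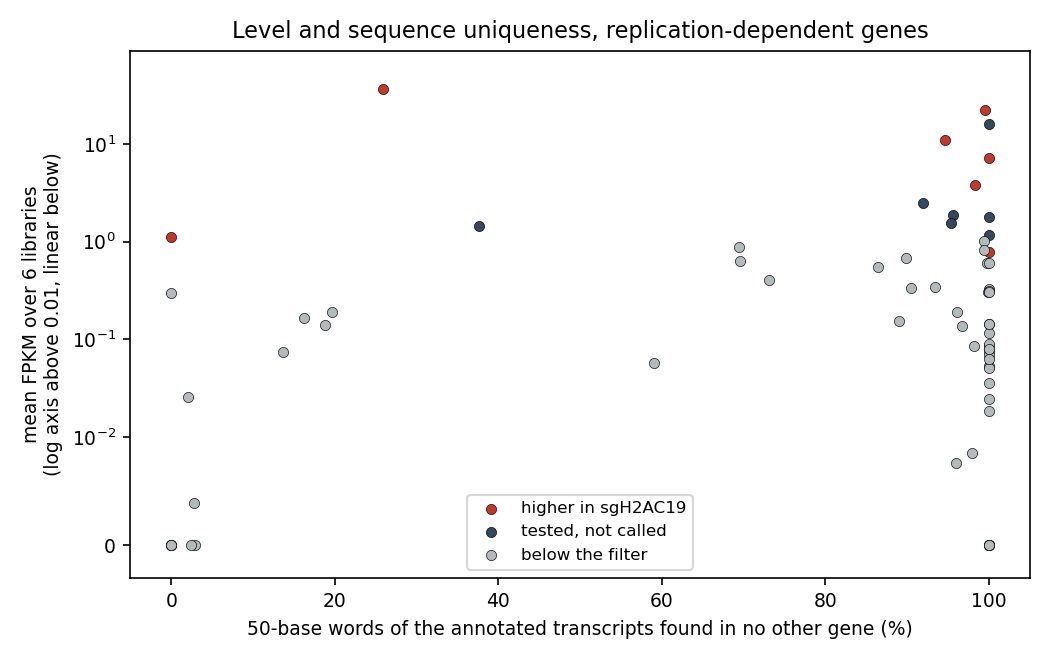
Mean FPKM over the 6 libraries (vertical axis, log scale above 0.01 and linear below) against the percentage of 50-base words of the annotated transcripts found in no other gene (horizontal axis), for 68 replication-dependent genes. Red points were higher in sgH2AC19 by limma, dark points were tested and not called, grey points stayed below the filter; of the 10 genes under 10%, 6 lie at 0.

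Levels also differed by the 3′ end annotated in GENCODE 29, which need not be the annotation behind the FPKM. The values of H2AC11 gave whole reads at 493 bases and not at its 2250 annotated exon bases, and those of H2BC9 at 462 and not at 2060. Such genes may have been counted on shorter models than the ones that sort them here. For 23 of the 68 genes GENCODE 29 has a transcript that runs more than 100 bases past the stem-loop, and their median level was 0.602 FPKM, with 6 tested and 3 at 0. In 8 genes the transcript that holds the stem-loop ends within 100 bases of it, with a median of 0.112 FPKM, 2 tested and 2 at 0. H2BC5, the highest of these 8 at 11.1 FPKM, also has an annotated form with 384 bases after the coding part. The remaining 37 have no stem-loop in the annotated transcript, with a median of 0.0900 FPKM, 6 tested and 6 at 0. For 34 of these the annotation gives no bases after the coding part, so their 3′ ends are unknown here and the comparison of levels is a description. H2BC12, the highest of the 68 at 36.9 FPKM over all libraries, is one of the 34. Recovered reads differed widely among the tested genes: H4C8, the one H4 gene tested, rested on 454 to 922 per library and H3C2 on only 5 to 34. The reads of H3C2 were recovered at the smallest length that gives whole reads and can be too low.

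**Figure D2:**
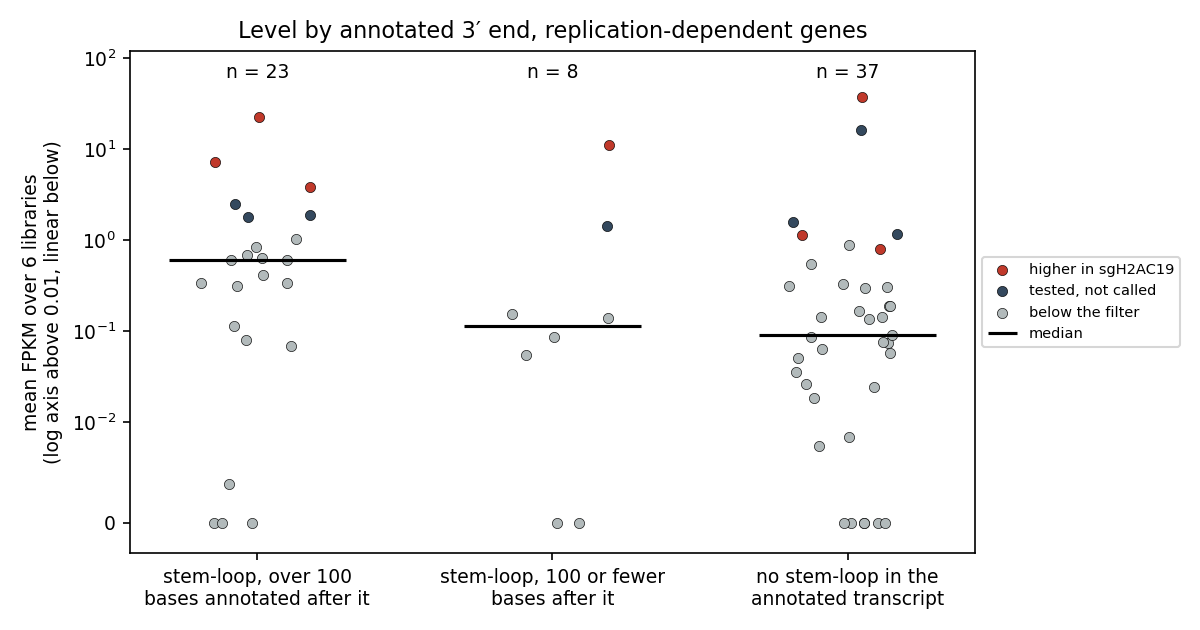
Mean FPKM over the 6 libraries (log scale above 0.01, linear below) for 68 replication-dependent genes by annotated 3′ end, with the median of each set as a line. Medians are 0.602 FPKM for 23 genes annotated past the stem-loop, 0.112 FPKM for 8 whose transcript with the stem-loop ends near it and 0.0900 FPKM for 37 with no stem-loop in the annotated transcript.

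Among the 24 genes tested, 10 were called higher in sgH2AC19 and 1 lower, where 12% and 11.0% of all genes tested were called in these directions, and 13 were not called. Of the 10, H2AC15 and H3C2 passed the filter through the sgH2AC19 libraries alone and would not have been tested at their sgControl level. Among the 22 genes that passed it through both groups, 8 were called higher and 1 lower. The groups did not overlap in 12 of the 24 (10 of the 22) with sgH2AC19 above and in 1 with sgH2AC19 below, against 21.5% and 21.7% of all genes tested. Over the 69 members above 0 these counts were 20 and 2, against 11.2% and 10.9% of all genes above 0, and the mean was higher in sgH2AC19 in 49, against 49.5%. At an unadjusted p under 0.05, 16 of the 24 (14 of the 22) were higher and 1 lower, against 18.6% and 18.9% of all genes tested. The median log2 fold change, on the log2(FPKM + 1) scale used unless another is named, was 0.36 over the 24 and 0.30 over the 22, against -0.01 over all genes tested. The 10 called higher had a median of 0.48, and 0.44 without H2AC15 and H3C2, against 0.34 over all genes called higher. By class they were H2AC6 and H2AC15 of H2A, H2BC5 and H2BC12 of H2B, H3C2 and H3C6 of H3, H4C8 of H4, and the variants H2AJ, MACROH2A1 and MACROH2A2. None of the 4 H1 genes tested was called by limma in either direction, and 2 of them were higher at an unadjusted p under 0.05. The count of 10 fell to 6 without sgH2AC19 replicate 1, without sgH2AC19 replicate 2 or without sgControl replicate 2, and was 15 without sgH2AC19 replicate 3. In each fit without an sgH2AC19 library H2AC15 and H3C2 did not pass the filter. Without sgH2AC19 replicate 1 or 2, MACROH2A1 and H3C6 were tested and lost their calls.

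**Figure D3:**
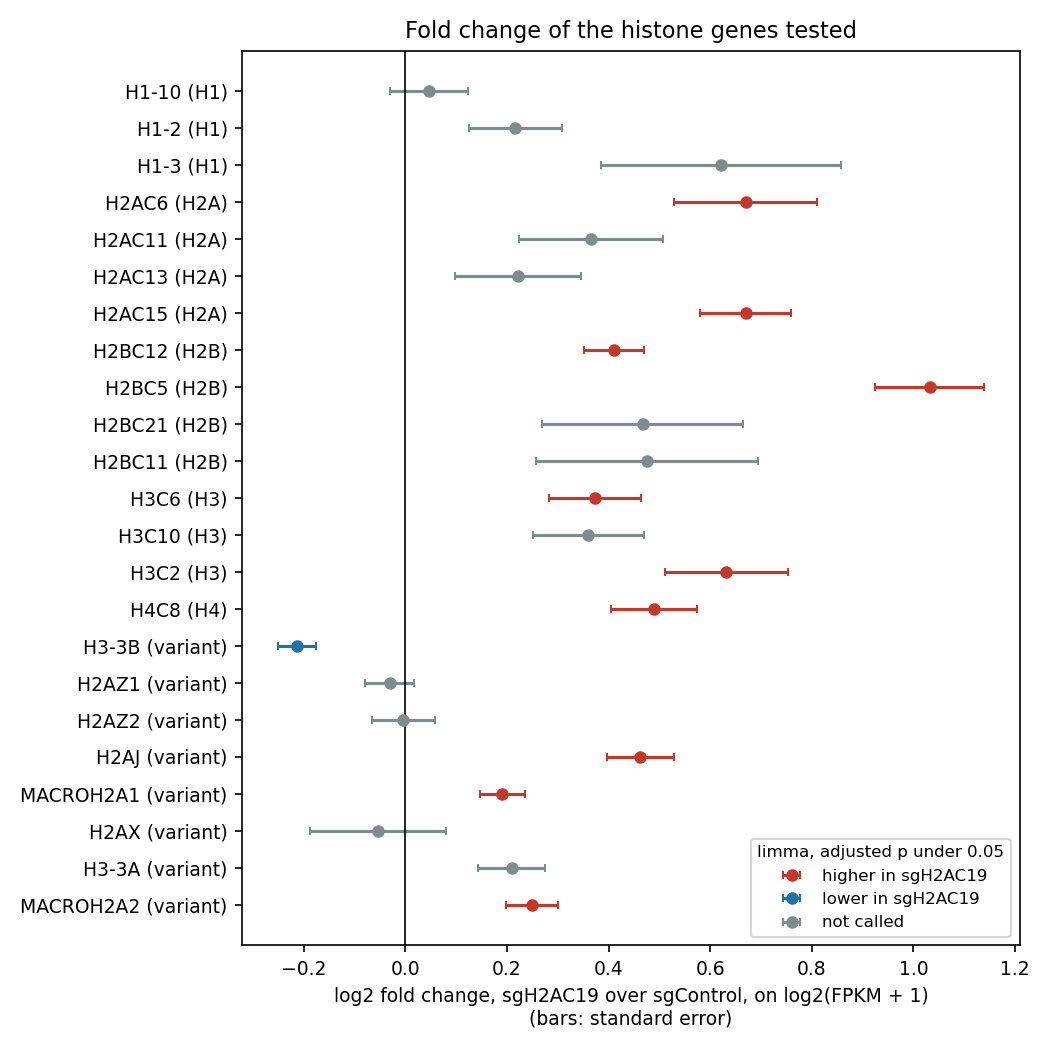
Log2 fold change of sgH2AC19 over sgControl on log2(FPKM + 1) (horizontal axis) with its standard error from limma, for 23 of the histone genes tested, in order of class and then mean level. H2BC5 lies farthest to the right at 1.03 and H3-3B, the 1 gene called lower, at -0.21.

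The H2A genes encode the same class of core histone as the targeted gene. H2AC6 (HIST1H2AC, chr6:26124145-26139116, plus strand, GRCh38), a clustered gene known to give a polyadenylated form as well, was at 30.8, 32.0 and 21.3 FPKM in sgH2AC19 and 16.9, 16.3 and 17.8 FPKM in sgControl. Every sgH2AC19 library lay above every sgControl library, with sgH2AC19 replicate 3 nearest to them. The fold change was 0.67 on the log2 scale (SE 0.140, limma adjusted p 0.0157). It missed the threshold when sgControl replicate 2 was left out (adjusted p 0.0577) and in the fit over all genes above 0 FPKM (0.0741).

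H2AC15 was at 1.59, 1.81 and 1.43 FPKM in sgH2AC19 and 0.612, 0.561 and 0.745 FPKM in sgControl, from 11 to 36 recovered reads, a count that can be too low. The groups did not overlap, and the log2 fold change was 0.67 (SE 0.0896, adjusted p 0.00321), or 1.21 with a pseudocount of 0.1 and 1.29 with voom on the recovered reads. It passed the filter through the sgH2AC19 libraries alone, and no gene at its sgControl level could have passed by falling in sgH2AC19. Its partner H2BC15, on the opposite strand of the same stretch of chromosome 6, stayed below the filter at 0.964, 0.854 and 0.704 FPKM in sgH2AC19 and 0.686, 0.380 and 0.514 FPKM in sgControl, also without overlap. Without known strand use, reads in the stretch that the 2 genes share cannot be told apart. In GENCODE 29 that stretch is all of H2AC15, while 7.25% of the exon bases of H2BC15 overlap H2AC15 or another gene.

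The other 2 H2A genes tested were not called. H2AC11 was at 2.48, 2.56 and 1.71 FPKM in sgH2AC19 and 1.23, 1.39 and 1.95 FPKM in sgControl (log2 fold change 0.37, SE 0.142, adjusted p 0.106). H2AC13, which has 37.7% of its words to itself, was at 2.03, 1.25 and 1.60 FPKM in sgH2AC19 and 1.45, 1.07 and 1.20 FPKM in sgControl (0.22, SE 0.124, adjusted p 0.235). The groups overlapped in each gene.

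The H2B genes, whose products pair with H2A in the nucleosome, held the gene with the largest fold change on log2(FPKM + 1). With a pseudocount of 0.1 or with voom the low genes H3C2 and H2AC15, and H1-3, which was not called, had larger ones. H2BC5 (HIST1H2BD, chr6:26158146-26171349, plus strand, GRCh38), for which a stem-loop form and a spliced form are annotated, was at 16.0, 17.2 and 12.6 FPKM in sgH2AC19 and 7.37, 6.58 and 6.76 FPKM in sgControl. The lowest sgH2AC19 library, replicate 3, stood well above the highest sgControl library. Means were 15.3 ± 2.40 FPKM in sgH2AC19 and 6.90 ± 0.412 FPKM in sgControl (SD, n = 3 each). The log2 fold change was 1.03 (SE 0.107, adjusted p 0.00143), and 1.12 with a pseudocount of 0.1 and 1.14 with voom.

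H2BC12 (HIST1H2BK, chr6:27146418-27146798, minus strand, GRCh38), another clustered gene known to be polyadenylated, was at 41.1, 42.3 and 43.3 FPKM in sgH2AC19 and 33.7, 31.9 and 29.1 FPKM in sgControl. The groups were apart, and here sgH2AC19 replicate 3 was the highest library of all. The log2 fold change was 0.41 (SE 0.0593, adjusted p 0.0041).

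H2BC21 (HIST2H2BE, chr1:149884459-149886652, minus strand, GRCh38), the one H2B gene of the chromosome 1 cluster that was tested, was at 3.60, 3.84 and 1.79 FPKM in sgH2AC19 and 1.93, 1.96 and 1.71 FPKM in sgControl. It was not called (log2 fold change 0.47, SE 0.198, adjusted p 0.131), and sgH2AC19 replicate 3 lay among the sgControl libraries. Without that library the fold change was 0.72 (adjusted p 0.00131). H2BC11 was at 3.14, 1.71 and 1.21 FPKM in sgH2AC19 and 1.32, 0.847 and 1.15 FPKM in sgControl, with overlap (0.48, SE 0.219, adjusted p 0.159; without sgH2AC19 replicate 3, 0.68 and 0.0428).

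Among the H3 genes H3C6 (HIST1H3E, chr6:26224199-26227473, plus strand, GRCh38) was at 4.54, 4.93 and 3.75 FPKM in sgH2AC19 and 3.27, 2.88 and 3.33 FPKM in sgControl. The groups did not overlap, and the log2 fold change was 0.37 (SE 0.0913, adjusted p 0.0263). That call was lost in 8 of 14 alternatives, among them each fit without sgH2AC19 replicate 1 or 2 or without any of the sgControl libraries, with adjusted p up to 0.104.

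H3C2 was at 1.45, 1.04 and 1.03 FPKM in sgH2AC19 and 0.432, 0.248 and 0.531 FPKM in sgControl, again apart (log2 fold change 0.63, SE 0.121, adjusted p 0.0114). Its fold change was 1.37 with a pseudocount of 0.1 and 1.55 with voom. Like H2AC15 it passed the filter through sgH2AC19 alone. H3C10 was at 2.41, 2.22 and 1.71 FPKM in sgH2AC19 and 1.26, 1.66 and 1.34 FPKM in sgControl, without overlap but short of the threshold (0.36, SE 0.109, adjusted p 0.0515). Median-ratio scaling (adjusted p 0.0449) and leaving out sgH2AC19 replicate 3 (0.0156) each brought H3C10 past it.

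H4C8 (HIST1H4H, chr6:26277609-26285638, minus strand, GRCh38) was the single H4 gene above the filter. It was at 9.32, 8.68 and 7.69 FPKM in sgH2AC19 and 6.10, 6.15 and 5.17 FPKM in sgControl. All 3 sgH2AC19 libraries lay above the sgControl libraries, and the log2 fold change of 0.49 (SE 0.0848, adjusted p 0.0081) passed the threshold in all 14 alternatives, with adjusted p up to 0.0402.

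**Figure D4:**
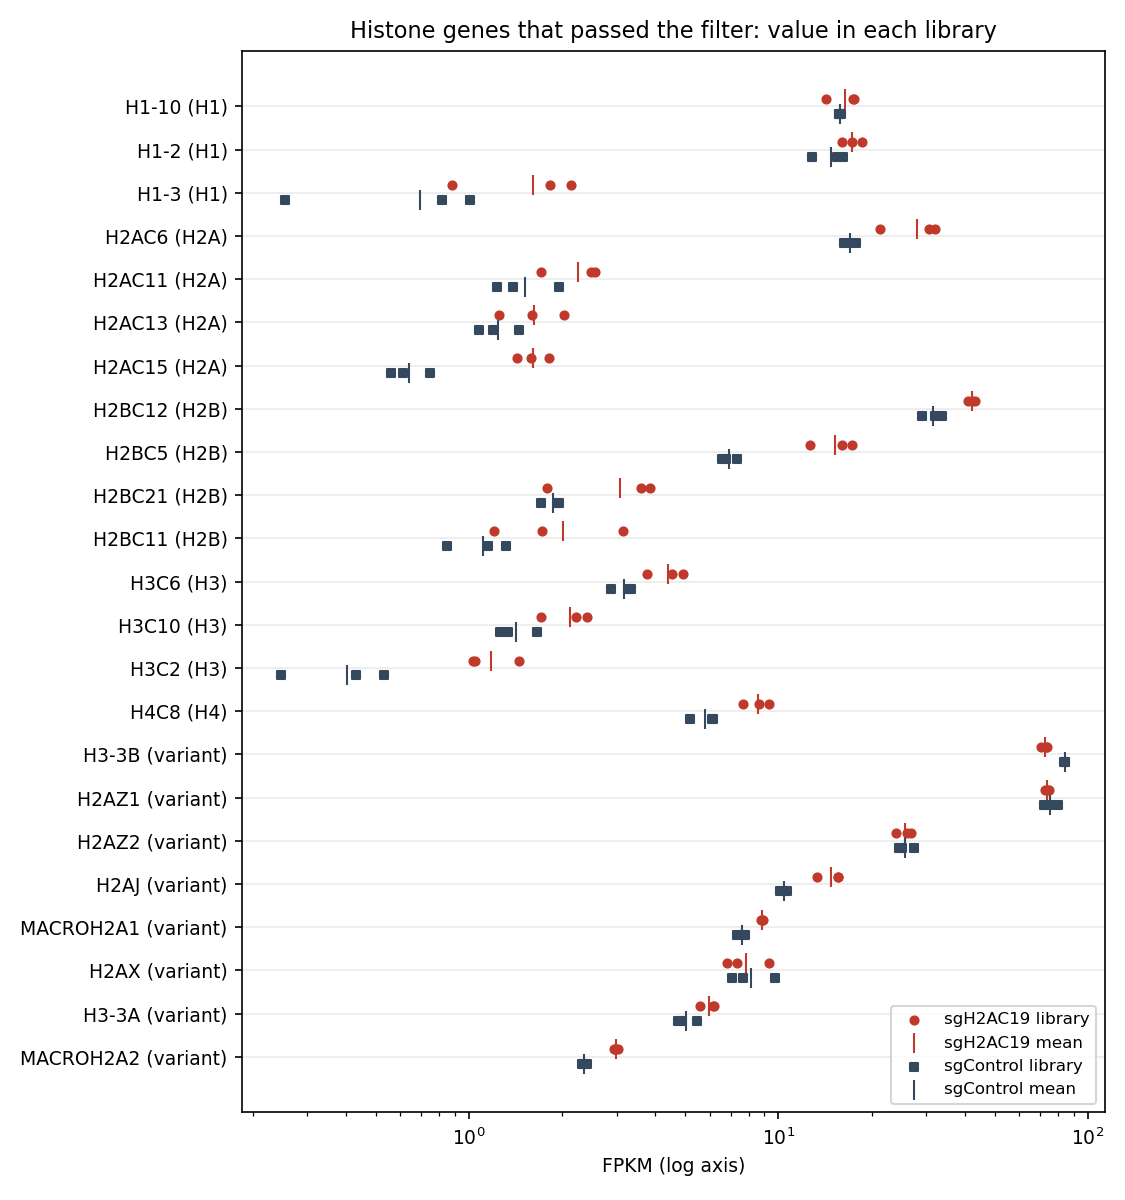
FPKM per library (horizontal log axis; red circles for sgH2AC19, dark squares below them for sgControl) and the mean of each group (vertical tick), 1 row for each of 23 of the histone genes tested. In H2BC5 the sgH2AC19 libraries lie at 12.6 to 17.2 FPKM and the sgControl libraries at 6.58 to 7.37 FPKM, whereas in H2BC21 sgH2AC19 replicate 3, at 1.79 FPKM, lies among the sgControl libraries.

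Promoters are shown for the targeted gene and for 4 of the core genes called higher, as the 120 bases before the RefSeq start (GRCh38.p14), 5′ to 3′ on the gene's strand. Capitals mark CCAAT on either strand, the box bound by NF-Y, TATAAA on the sense strand, the box bound by TBP, and ATTTGCAT on either strand, the octamer bound by OCT1 and known from H2B promoters. The 3 motifs do not overlap one another in these sequences.
H2AC19: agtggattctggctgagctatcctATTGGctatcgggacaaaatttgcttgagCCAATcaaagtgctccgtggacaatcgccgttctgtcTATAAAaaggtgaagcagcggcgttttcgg
H2AC6: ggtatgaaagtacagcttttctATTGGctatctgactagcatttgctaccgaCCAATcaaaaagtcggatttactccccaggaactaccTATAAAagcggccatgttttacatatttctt
H2BC5: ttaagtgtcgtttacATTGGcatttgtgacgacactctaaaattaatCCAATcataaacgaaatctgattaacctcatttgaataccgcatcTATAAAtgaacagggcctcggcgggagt
H2BC12: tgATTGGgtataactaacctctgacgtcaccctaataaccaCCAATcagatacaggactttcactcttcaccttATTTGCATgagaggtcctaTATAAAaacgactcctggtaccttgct
H4C8: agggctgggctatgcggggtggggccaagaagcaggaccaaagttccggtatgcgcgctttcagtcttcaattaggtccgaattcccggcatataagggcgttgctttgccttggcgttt
They lie at chr1:149850941-149851060 on the plus strand for H2AC19, chr6:26124052-26124171 on the plus strand for H2AC6, chr6:26158001-26158120 on the plus strand for H2BC5, chr6:27146859-27146978 on the minus strand for H2BC12 and chr6:26285535-26285654 on the minus strand for H4C8. Over the 250 bases before the start, CCAAT was found in 16 of 16 H2A, 18 of 18 H2B, 11 of 11 H3, 8 of 9 H1, 3 of 13 H4 and 6 of 8 variant promoters, and in 32.0% of 35116 promoters of all genes. The octamer was found in 11 H2A, 14 H2B, 1 H3 and 1 variant promoter and in none of the H1 and H4 promoters, and in 1.63% of all promoters. TATAAA was found in 11 H2A, 9 H2B, 7 H3, 7 H4, 4 H1 and 3 variant promoters, and in 6.80% of all. The letters of the H4C8 window hold none of the 3 motifs.

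The linker histone genes tested showed no called change. H1-10, which is not bound to replication, was at 17.4, 17.5 and 14.3 FPKM in sgH2AC19 and 15.6, 15.7 and 15.9 FPKM in sgControl (0.05, SE 0.0774, adjusted p 0.701), with sgH2AC19 replicate 3 the lowest of the 6 libraries, and 22.9% of its exons overlap the antisense gene H1FX-AS1. Without sgH2AC19 replicate 3 its fold change was 0.14 (adjusted p 0.0401).

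H1-2 and H1-3 are replication-dependent linker genes. H1-2 was at 17.3, 16.0 and 18.6 FPKM in sgH2AC19 and 16.2, 15.4 and 12.8 FPKM in sgControl (log2 fold change 0.22, SE 0.0916, adjusted p 0.131). H1-3 was at 1.83, 2.13 and 0.882 FPKM in sgH2AC19 and 0.818, 1.01 and 0.254 FPKM in sgControl, so that the groups overlapped through replicate 3 of sgH2AC19 and replicate 2 of sgControl. It was not called (0.62, SE 0.237, adjusted p 0.1), and passed the threshold without sgH2AC19 replicate 3 (0.84, adjusted p 0.0264).

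The variants are made outside S phase as well. Of the 8, 3 were called higher and 1 lower, against 12% and 11.0% of all genes tested. H3-3B, which with H3-3A encodes the replacement histone H3.3, was the gene called lower: 73.6, 73.2 and 70.4 FPKM in sgH2AC19 and 84.1, 83.8 and 84.5 FPKM in sgControl. The groups were apart in a narrow range, with a log2 fold change of -0.21 (SE 0.0376, adjusted p 0.00859), and the call held in all 14 alternatives with adjusted p up to 0.0428. H3-3A, the other H3.3 gene, was at 5.57, 6.16 and 6.18 FPKM in sgH2AC19 and 5.47, 4.89 and 4.73 FPKM in sgControl. Its groups did not overlap, but it was not called (0.21, SE 0.0659, adjusted p 0.0588), and it shares sequence with H3.3 pseudogenes. The sgH2AC19 libraries thus lay above sgControl in H3-3A and below it in H3-3B, whose difference was the one called.

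H2AJ, an H2A variant gene on chromosome 12 with polyadenylated mRNA, was at 15.5, 15.5 and 13.4 FPKM in sgH2AC19 and 10.5, 10.1 and 10.7 FPKM in sgControl. Every sgH2AC19 library was above every sgControl library (log2 fold change 0.46, SE 0.0655, adjusted p 0.00384), and the call held in all 14 alternatives. The macroH2A genes encode H2A variants with a large extra domain, known from the inactive X chromosome and silent chromatin. MACROH2A1 was at 8.81, 8.84 and 8.89 FPKM in sgH2AC19 and 7.75, 7.37 and 7.77 FPKM in sgControl (0.19, SE 0.0438, adjusted p 0.0212), and 30.9% of its annotated exons overlap genes on the opposite strand, C5orf66 among them. MACROH2A2 was at 3.03, 2.95 and 2.97 FPKM in sgH2AC19 and 2.33, 2.32 and 2.40 FPKM in sgControl (0.25, SE 0.0515, adjusted p 0.0149). Neither gene's groups overlapped. The call on MACROH2A1 was lost in 6 of 14 alternatives (adjusted p up to 0.0849): under upper-quartile scaling and without any 1 library other than sgH2AC19 replicate 3. That on MACROH2A2 was lost in 2, without sgControl replicate 1 or 2 (up to 0.0573).

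The remaining variants were not called, and their groups overlapped. H2AX, the variant phosphorylated at DNA breaks, was at 7.33, 6.83 and 9.33 FPKM in sgH2AC19 and 7.68, 7.09 and 9.72 FPKM in sgControl (-0.05, SE 0.134, adjusted p 0.81). H2AZ1, one of the pair of genes for H2A.Z, a variant found at promoters, was at 74.4, 74.9 and 72.5 FPKM in sgH2AC19 and 75.1, 71.9 and 80.0 FPKM in sgControl (-0.03, SE 0.0487, adjusted p 0.685). H2AZ2, the other, was at 23.9, 26.0 and 26.8 FPKM in sgH2AC19 and 25.2, 24.4 and 27.3 FPKM in sgControl (-0.00, SE 0.0616, adjusted p 0.971). The direction of these 3 changed when single libraries were left out.

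Below the filter, 45 members had reads. The groups did not overlap in 8 of them with sgH2AC19 above and in 1 with sgH2AC19 below, against 5.66% and 5.15% of all genes below the filter, and the mean was higher in sgH2AC19 in 29 of the 45, against 49.7% of all such genes. The 8 were H1-5, H2BC6, H2BC9, H2BC10, H2BC15, H2BC17, H3C1 and H4C16, and the 1 was H3C13. Of the 8, 4 (H1-5, H2BC9, H2BC10 and H3C1) were listed at 0 in all sgControl libraries. They rested on 1 to 8 recovered reads per sgH2AC19 library, counts that can be too low by a common factor. When all genes above 0 FPKM entered the fit, limma called none of the 45 at an adjusted p under 0.05. At an unadjusted p under 0.05 in that fit, 9 were higher and 2 lower, against 3.14% and 3.24% of all genes below the filter. No other tool was run on them.

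The highest 5 of these by mean were H2AC25, H2AC20, H4C9, H2BC15 and H2BC6. H2AC25 was at 1.39, 1.30 and 0.740 FPKM in sgH2AC19 and 0.954, 0.944 and 0.799 FPKM in sgControl. H2AC20 was at 1.37, 1.02 and 0.639 FPKM in sgH2AC19 and 0.782, 0.615 and 0.798 FPKM in sgControl. In both, sgH2AC19 replicate 3 lay among or below the sgControl libraries. H4C9 was at 0.606, 1.34 and 1.39 FPKM in sgH2AC19 and 0.486, 0.446 and 0.683 FPKM in sgControl, with replicate 1 of sgH2AC19 inside the sgControl range. H2BC6, 28.2% of which is overlapped by an antisense gene, was at 0.947, 0.683 and 0.703 FPKM in sgH2AC19 and 0.469, 0.440 and 0.591 FPKM in sgControl, without overlap. H4C16, a solitary H4 gene on chromosome 12 once named H4-16, was at 0.793, 0.742 and 0.708 FPKM in sgH2AC19 and 0.393, 0.402 and 0.573 FPKM in sgControl, also apart.

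Summed over all members of a class, FPKM separated the groups in the 4 core classes and not in the variants. The 17 H2A genes summed to 40.2, 40.0 and 28.3 FPKM in sgH2AC19 and 22.7, 21.3 and 23.7 FPKM in sgControl. The 18 H2B genes summed to 69.3, 69.7 and 63.3 FPKM in sgH2AC19 and 47.0, 44.2 and 42.3 FPKM in sgControl. Each sgH2AC19 sum was above each sgControl sum in both classes, though replicate 3 was the lowest of its group. The 13 H3 genes summed to 8.92, 8.88 and 7.13 FPKM in sgH2AC19 and 5.37, 5.83 and 6.07 FPKM in sgControl, and the 15 H4 genes to 12.7, 13.2 and 11.6 FPKM in sgH2AC19 and 8.28, 9.44 and 7.54 FPKM in sgControl, likewise apart.

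Few genes set these sums. With H2AC6 left out, the H2A genes summed to 9.41, 8.06 and 6.93 FPKM in sgH2AC19 and 5.72, 5.06 and 5.96 FPKM in sgControl. With H2BC5 and H2BC12 left out, the H2B genes summed to 12.2, 10.1 and 7.38 FPKM in sgH2AC19 and 6.01, 5.66 and 6.50 FPKM in sgControl. Both sums were still apart, by a smaller margin in replicate 3 of sgH2AC19. The sums of the variants overlapped, at 212.2, 214.5 and 210.5 FPKM in sgH2AC19 and 218.1, 211.9 and 227.2 FPKM in sgControl. In a bulk sample a change in the share of cells in a phase and a change in RNA per cell cannot be told apart.

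**Figure D5:**
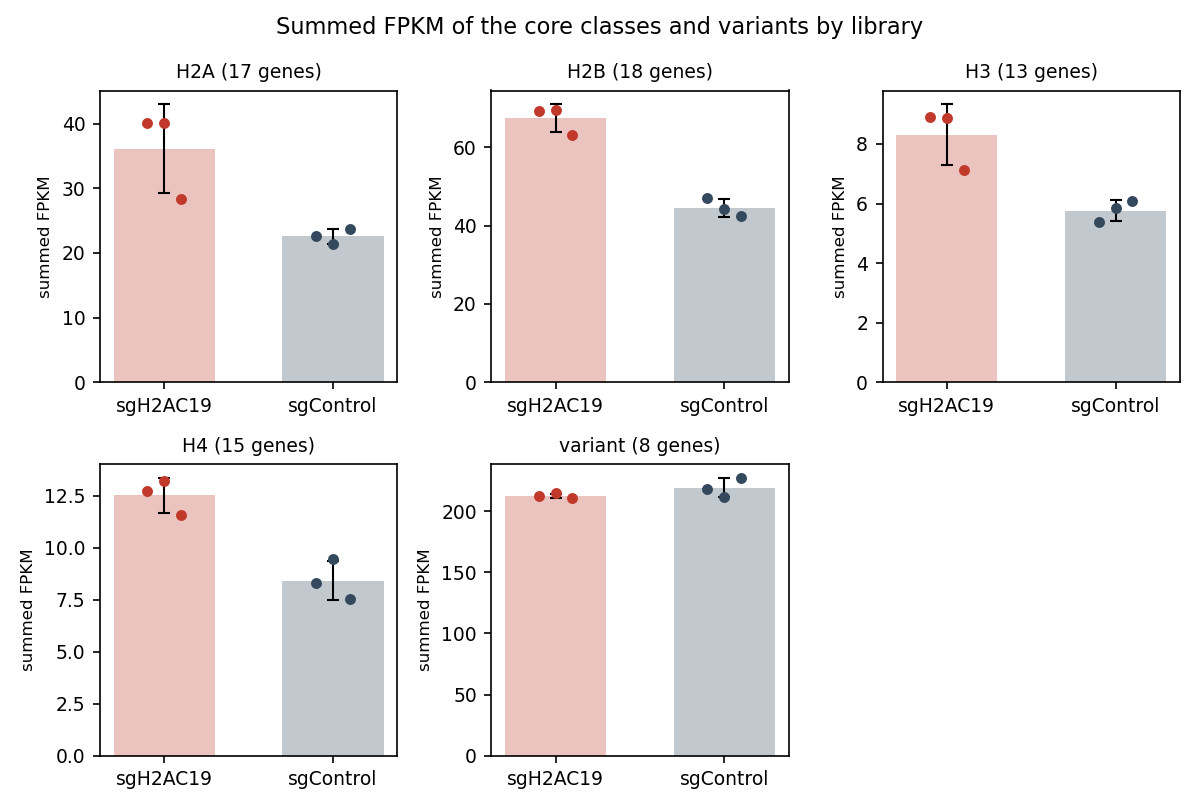
Summed FPKM of each core class and of the variants, as the mean of each group (bars) with its SD (error bars, n = 3) and each library (points), each panel with its own axis from 0. The groups are apart in H2A, H2B, H3 and H4 (for H2B, 63.3 to 69.7 FPKM in sgH2AC19 and 42.3 to 47.0 FPKM in sgControl) and overlap in the variants.

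By position, the genes called higher lay in both blocks of the chromosome 6 cluster and elsewhere in the genome. Of all genes tested 12% were called higher and 11.0% lower. The counts below include H3C2 in the first block and H2AC15 in the second, which passed the filter through sgH2AC19 alone. The first block (chr6:25726132-26285638, GRCh38) held 34 members, 7 of them tested, 5 called higher and 6 at 0. The second (chr6:27125897-27893843) held 21 members, 6 of them tested, 2 called higher and none at 0. The cluster that holds H2AC19 (chr1:149782689-149887916) had 11 members, 5 of them at 0 and 1, H2BC21, tested and not called. Its sum overlapped between groups at 5.61, 5.42 and 2.82 FPKM in sgH2AC19 and 3.13, 3.63 and 3.09 FPKM in sgControl. The 2 genes of the smaller chromosome 1 cluster, H2AC25 and H2BC26, were not tested, and of 13 members elsewhere 10 were tested, with 3 called higher and 1 lower.

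Replicate 3 of sgH2AC19 ran through these results. Among the 10 genes called higher it was the lowest sgH2AC19 library in 7, replicate 1 in 2 and replicate 2 in 1. It was not low in H2BC12 or in the macroH2A genes, and it was the highest sgH2AC19 library in H1-2 and in H2AX.

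Genes of histone supply and of the cell cycle give the surroundings. The list of 25 histone supply factors (transcription, 3′ end processing, chaperones) also holds CENPA, itself a histone. Of the 25, 24 were tested, and 8, CENPA among them, were called higher and 1 lower, against 12% and 11.0% of all genes tested. Their median log2 fold change was 0.10. Without sgControl replicate 2 they numbered 3 higher and 0 lower, without sgControl replicate 1, 4 higher, and without sgH2AC19 replicate 1 or 2, 5 higher. CENPA, the H3 variant of centromeres, averaged 13.9 ± 0.983 FPKM in sgH2AC19 and 9.58 ± 0.466 FPKM in sgControl (0.49, adjusted p 0.00274). NASP, an H3 and H4 chaperone, averaged 15.9 ± 1.15 FPKM in sgH2AC19 and 11.7 ± 0.348 FPKM in sgControl (0.41, adjusted p 0.00434). HAT1, which acetylates new H4, and RBBP4, a histone chaperone, rose by 0.31 and 0.29 (adjusted p 0.0103 and 0.0146).

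Of the listed factors that act on the stem-loop mRNAs or their genes, only CPSF3 was called higher and only ERI1 lower. CASP8AP2, LSM10, LSM11, ZNF473, CPSF2, CSTF2 and SYMPK were not called. Their log2 fold changes ran from -0.11 (CSTF2) to 0.16 (ZNF473). CPSF3, the nuclease that cleaves histone pre-mRNA after the stem-loop, averaged 25.4 ± 0.791 FPKM in sgH2AC19 and 22.5 ± 0.552 FPKM in sgControl (0.17, adjusted p 0.0329). SLBP, which binds the stem-loop, averaged 21.2 ± 0.711 FPKM in sgH2AC19 and 22.4 ± 0.716 FPKM in sgControl (-0.07, adjusted p 0.288). NPAT, the coactivator of clustered histone genes, averaged 2.64 ± 0.162 FPKM in sgH2AC19 and 2.69 ± 0.158 FPKM in sgControl (-0.02, adjusted p 0.851). ERI1, an exonuclease that trims and degrades these mRNAs, was the factor called lower, at 10.2 ± 0.879 FPKM in sgH2AC19 and 12.2 ± 0.265 FPKM in sgControl (-0.23, adjusted p 0.0409). No supply factor was called lower in a fit without 1 library other than sgH2AC19 replicate 3.

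Of 37 S phase genes 35 were tested, and limma called 12 higher and 0 lower, against 12% and 11.0% of all genes tested, with a median log2 fold change of 0.22. At an unadjusted p under 0.05, 21 were higher and 0 lower, against 18.6% and 18.9% of all genes tested. Voom also called 0 lower. Without sgControl replicate 1 or 2, limma called 7 and 6 S phase genes higher. CDC6 and ORC6, which load the replicative helicase, averaged 16.5 ± 0.583 and 7.53 ± 0.342 FPKM in sgH2AC19 and 12.8 ± 0.364 and 5.58 ± 0.225 FPKM in sgControl (0.34 and 0.37, adjusted p 0.00358 and 0.00375). Of 25 G2/M genes 24 were tested, and limma called 5 higher and 0 lower, against the same shares of all genes, with a median of 0.14. Here 10 were higher and 0 lower at an unadjusted p under 0.05, against the same 18.6% and 18.9%, and voom called 0 lower. BIRC5, the survivin gene, averaged 24.2 ± 0.616 FPKM in sgH2AC19 and 16.0 ± 0.813 FPKM in sgControl (0.56, adjusted p 0.000881). CENPF, a kinetochore protein, averaged 12.8 ± 0.522 FPKM in sgH2AC19 and 9.55 ± 0.642 FPKM in sgControl (0.39, adjusted p 0.00505). The S phase genes summed to 503.0 to 576.4 FPKM in sgH2AC19 and 425.2 to 487.1 FPKM in sgControl, and the part of cell cycle distribution in the histone values was not tested.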

How the data were processed

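The labels' protocols give total RNA of A549 and a SMARTer mRNA-seq kit. The deposited values are FPKM, which the authors computed for each library, per the file headers. Columns written sgNC were taken as sgControl, columns written sgH2AC as sgH2AC19, and 0 value columns were left unused. The submitters' processing notes list GRCm38 and mm10, both of mouse, but the 62700 gene IDs are human. For the aligner, the counting and the annotation, a name is not given in the sources used here.

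Genes reaching 1 FPKM in 3 or more libraries were compared on log2(FPKM + 1) with limma (3.58.1, R 4.3.3) and a mean-variance trend, two-sided, Benjamini-Hochberg adjusted over the 12871 genes tested, threshold 0.05. Such fold changes understate the change of low genes. FPKM correct for length and depth but not composition. Read totals were recovered from the value spacing with GENCODE 29 lengths, and reads per gene from these totals. Reads were whole within 0.001 for 12871 genes tested, 3759 of them at the annotated length. For the others the smallest length that gives whole reads in every library was taken. Whole reads there follow from that search, and the counts can be too low by a common factor. The totals gave the depth, and totals and reads were used for voom. Depth differs by a factor of 1.28 between libraries, and in every library more genes had 2 reads than 1, and whether mates were counted singly was not tested. Sequences came from GENCODE 29 and RefSeq: 81 members had a transcript entry, 4 of them found by an older name, and 75 a promoter. Coordinates are those of these references. Tables and figures were made in Python 3.11.15 (pandas 2.3.3, numpy 2.4.6, matplotlib 3.10.9). The tests were tried on simulated data.

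The members and lists were chosen with earlier results of these data known. Named are the members that passed the filter, 1 of which is not reported here, the highest 5 by mean below it, H2AC19, H2AC18, and the called list genes with the smallest adjusted p: 4 supply factors, 2 S phase and 2 G2/M genes. H4C16, KRT19, CLDN4, LUM, COL1A1, CD14 and the members below the filter whose groups did not overlap were named after their values were seen. So were SLBP, NPAT, ERI1, CPSF3 and the other factors that act on the stem-loop mRNAs or their genes. Alternatives were 2 scalings, voom, 3 other filters, a pseudocount of 0.1, the replicate number as a block, and leaving out each library.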

Additional observations from a re-analysis of the deposited data

How the results depend on the processing

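H2BC5, H2AJ, H2BC12, H4C8 and H3-3B were called in all 14 alternatives. H2AC15 was called in the 11 in which it passed the filter and was absent from 3. It passed the main filter through sgH2AC19 alone, so its 11 calls are not comparable with calls in all 14. Histone genes called higher numbered 11 under median-ratio scaling, 8 under upper-quartile scaling, 10 with voom on the recovered reads, 7 with all genes above 0 FPKM, and 6 to 15 when 1 library was left out. In each of these fits 1 was called lower. Over all genes, 900 were higher and 653 lower with all genes above 0 FPKM, against 1545 and 1422. When 1 library was left out these counts were 904 to 1784 and 609 to 1645. Upper-quartile scaling gave 1058 and 1392 and moved the median of all genes by -0.03 (log2). Fold changes near 0 changed sign when 1 library was left out. They ran from -0.038 to 0.0416 for H2AZ2 (above 0 without sgH2AC19 replicate 1 or sgControl replicate 3), from -0.171 to 0.0657 for H2AX (above 0 without sgH2AC19 replicate 2 or sgControl replicate 3), from -0.0665 to 0.00936 for H2AZ1 (above 0 without sgControl replicate 3) and from -0.00062 to 0.137 for H1-10 (below 0 without sgH2AC19 replicate 2). The cause was not tested. The pseudocount of 0.1 and voom, both of which shrink low values less, gave larger fold changes for low genes: 1.18 and 1.34 for H1-3 (0.62 on log2(FPKM + 1)), 0.35 and 0.39 for H2AC13 (0.22), and 0.73 and 0.82 for H2BC11 (0.48), with voom at 0.56 for H2AC11 and 0.57 for H3C10, and none of these was called. Without sgH2AC19 replicate 1 the fold change was 0.22 for H2BC11 and 0.11 for H2AC13, and without sgControl replicate 3 it was 0.12 for H1-2. H3C2 was not called with all genes above 0 FPKM (adjusted p 0.0516) and did not pass the filter in 5 alternatives.

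The same replicate number correlated at 0.05, 0.03 and 0.06 between groups (Pearson, deviations from group means), so the numbers were not taken as a pairing, although each library correlated best with its own number. With the replicate block 10 histone genes were called higher and 1 lower, H1-3 was gained (adjusted p 0.0097) and H3C6 lost (0.0501), and over all genes 1406 were higher and 1323 lower. G2/M genes called higher numbered 9 with the block. With all genes above 0 FPKM, supply factors called higher numbered 4 and S phase genes 5. Without sgH2AC19 replicate 3, 1 S phase gene and 1 G2/M gene were called lower. Depth limits the members below the filter, most of which rest on a few recovered reads, and copies with shared sequence limit the values of 0.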
